A study of Homo sapiens with 13 samples.

Results

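Distal intergenic peaks are the S9.6 peaks of the 3 merged peak lists whose summit lies more than 10 kb outside every annotated gene, of any biotype, on chromosomes 1 to 22. They were found from the position of each summit in the gene table alone, without use of peak height or of the transfection. There were 2167 of them among 37478 peaks on these chromosomes. The siCtrl list held 558, the siREXO4 list 928 and the siRNaseH1 list 681. Gene positions came from RefSeq on GRCh38.p14, which numbers chromosome bases as hg38, the build of the peaks, does. A transcript that this table lacks would leave its peaks in the set, so "intergenic" means outside these annotated genes and not outside all transcription.

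The peaks come from DNA-RNA immunoprecipitation sequencing (DRIP-seq) of U2OS, an established human osteosarcoma line. Cells labelled wild type received a control siRNA (siCtrl), and the others received an siRNA against REXO4 (labelled REXO4 knockdown) or against RNaseH1 (labelled RNaseH1 knockdown). Of 13 samples, 9 were S9.6 IP libraries, 3 per transfection, with 1 input for each transfection and 1 IgG library of siCtrl cells beside them. The authors pooled the 3 IP libraries of a transfection into 1 list, so the values below carry no error between replicates. The transfections were therefore compared without a test or p-value. Intervals on shares are 95% Wilson intervals and cover counting error only.

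An R-loop forms when RNA pairs with one strand of the DNA duplex and displaces the other strand, and the S9.6 antibody binds the DNA-RNA hybrid. RNaseH1 degrades the RNA strand of such hybrids. REXO4 belongs to the REXO family of predicted exonucleases. Hybrids are best known from promoters and gene ends. Away from genes they have been described at enhancers, at telomeres, where the repeat RNA TERRA pairs with DNA, at repeats next to centromeres, and where RNA polymerase II continues past the end of a gene.

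The background and fragment values recovered from the lists were close to each other, though they do not measure the depth of the IP libraries. The lowest background recovered from a peak was 1.28 fragments for the siCtrl list, 1.41 for siREXO4 and 1.36 for siRNaseH1. Fragments could be recovered for 556 of 558 siCtrl, 924 of 928 siREXO4 and 677 of 681 siRNaseH1 distal peaks. At its summit the median distal peak rested on 12 fragments in the siCtrl and siREXO4 lists and on 13 in the siRNaseH1 list. The other peaks of the lists rested on medians of 13, 14 and 16 fragments. The distal peak with the fewest had 7 in each list.

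Distal intergenic peaks made up a smaller part of the list after either knockdown. Their share was 12.6% in siCtrl (11.7 to 13.6%), 7.44% in siREXO4 (6.99 to 7.91%) and 3.31% in siRNaseH1 (3.07 to 3.56%). These intervals do not overlap. The siREXO4 number was 1.66 times the siCtrl number and the siRNaseH1 number 1.22 times. All other peaks numbered 3865 in siCtrl, 11547 in siREXO4 and 19899 in siRNaseH1, which is 2.99 and 5.15 times the siCtrl number. Outside genes the knockdown with the longest list thus did not have the most distal peaks. The same order of shares was seen among the peaks whose summit lay outside genes. Of 1462 such siCtrl peaks 38.2% were distal, against 29.8% of 3114 in siREXO4 and 18.1% of 3756 in siRNaseH1.

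**Figure D1:**
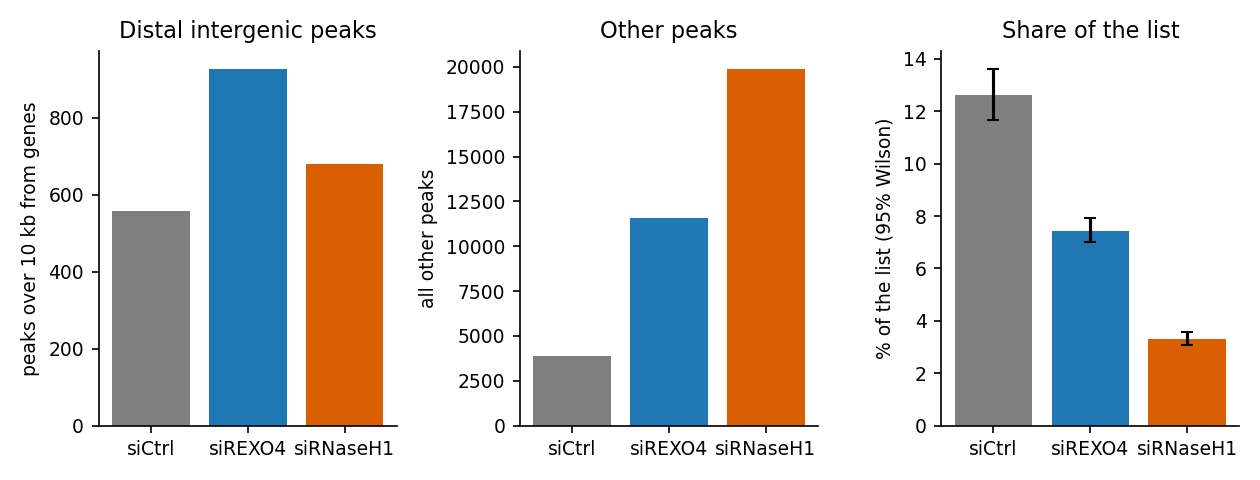
Number of distal intergenic peaks (left), number of all other peaks (middle) and distal share of each list in percent with 95% Wilson intervals (right) for the 3 merged lists, on separate axes that start at 0. The distal peaks number 558, 928 and 681, while the other peaks number 3865, 11547 and 19899.

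These numbers depend on how long each list is. With each list limited to the 4423 peaks of lowest p-value, which is the length of the siCtrl list, 185 siREXO4 and 105 siRNaseH1 peaks were distal, against 558 in siCtrl. At a fold enrichment of at least 5 the numbers were 260, 329 and 280, where 41.2%, 46.6% and 54.5% of the whole lists reached this fold. The fold enrichment is the authors' own value, which sets the summit against the background around it within 1 list. The order of the shares, with siCtrl highest and siRNaseH1 lowest, held under these settings.

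The distal peaks of the 3 lists lay at similar distances from genes. The median distance to the nearest gene was 24565 bp for siCtrl peaks, 22826 bp for siREXO4 peaks and 23882 bp for siRNaseH1 peaks. Within 10 to 20 kb lay 40.7%, 44.1% and 42.1% of them. The lists differed more at the far end, where 9.86% of siCtrl and 9.81% of siREXO4 distal peaks lay more than 100 kb from any gene, against 17.6% in siRNaseH1. Nearer to genes, peaks over 2 to 10 kb from a gene formed 12.0% of the siCtrl list, 8.59% of the siREXO4 list and 7.28% of the siRNaseH1 list, and peaks inside genes formed 66.9%, 75.0% and 81.7%.

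The gene-free stretches that hold the peaks separated the siRNaseH1 list from the others. A stretch runs from the end of one gene to the start of the next and includes any unsequenced gap of the assembly. Stretches over 500 kb held 147 siRNaseH1 distal peaks, 21.6% of them (18.7 to 24.8%), against 27 in siCtrl (4.84%, 3.35 to 6.95%) and 52 in siREXO4 (5.60%, 4.30 to 7.27%). Stretches of over 100 to 500 kb held 237, 353 and 173. Those of up to 100 kb held 291, 520 and 358. Without the stretches over 500 kb, 531 distal peaks were left in siCtrl, 876 in siREXO4 and 534 in siRNaseH1. In stretches of up to 500 kb the siRNaseH1 and siCtrl lists thus held nearly equal numbers of distal peaks. Per Mb of sequence over 10 kb from genes, the siRNaseH1 density in stretches of over 100 to 500 kb was 0.416, below the siCtrl value of 0.570 and the siREXO4 value of 0.850. In stretches over 500 kb it was 0.666, against 0.122 and 0.236.

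The siRNaseH1 peaks in the longest stretches were low in fold and stood on high local background. Their median fold was 3.64, against 4.96 in stretches of up to 100 kb. Their median local background was 7.46 times the lowest of the list, and 72.8% reached 1.5 times the lowest. In stretches of up to 100 kb the median was 1.34 times and 35.3% reached it. In siCtrl the peaks of the longest stretches had a median fold of 5.27 and a median background at the lowest value. A high local background means that many fragments of this IP or of its control lay around the peak. The treatment of multiply mapped reads is not given in the sources used here, and the part that repeats or copy number have in these peaks was not tested.

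A larger share of distal peaks lay in clusters in the siRNaseH1 list than in the others. A cluster was taken as 3 or more distal peaks of 1 list, each summit within 50 kb of the next. Of siRNaseH1 distal peaks, 174 lay in 35 clusters, which is 25.6% (22.4 to 29.0%). In siREXO4 70 lay in 20 clusters (7.54%, 6.01 to 9.42%), and in siCtrl 15 lay in 5 clusters (2.69%, 1.64 to 4.39%). The median distance from a distal peak to the nearest other one was 212 kb in siRNaseH1, 578 kb in siREXO4 and 1182 kb in siCtrl. The distances were thus shortest in siRNaseH1, although the siREXO4 list had more distal peaks. Of the siRNaseH1 peaks in clusters, 83 were in 9 clusters of the stretches over 500 kb. Neither of the other lists had a cluster in such a stretch. Without these stretches 17.0% of siRNaseH1 distal peaks were in clusters, against 7.99% in siREXO4 and 2.82% in siCtrl. With lists of equal length, cut by p-value, the share in clusters was 46.7% of 105 peaks in siRNaseH1 and 1.62% of 185 in siREXO4. The siREXO4 share rests on few peaks, and no difference from the siCtrl share of 2.69% is read from it. A cut by p-value can keep peaks of low fold on high background. A siCtrl distal peak of fold 1.58, for example, had a −log10 p of 22.4, against a median of 7.83. The shortened lists were not split by background or by the length of the stretch, so 46.7% is not read as stronger clustering.

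**Figure D2:**
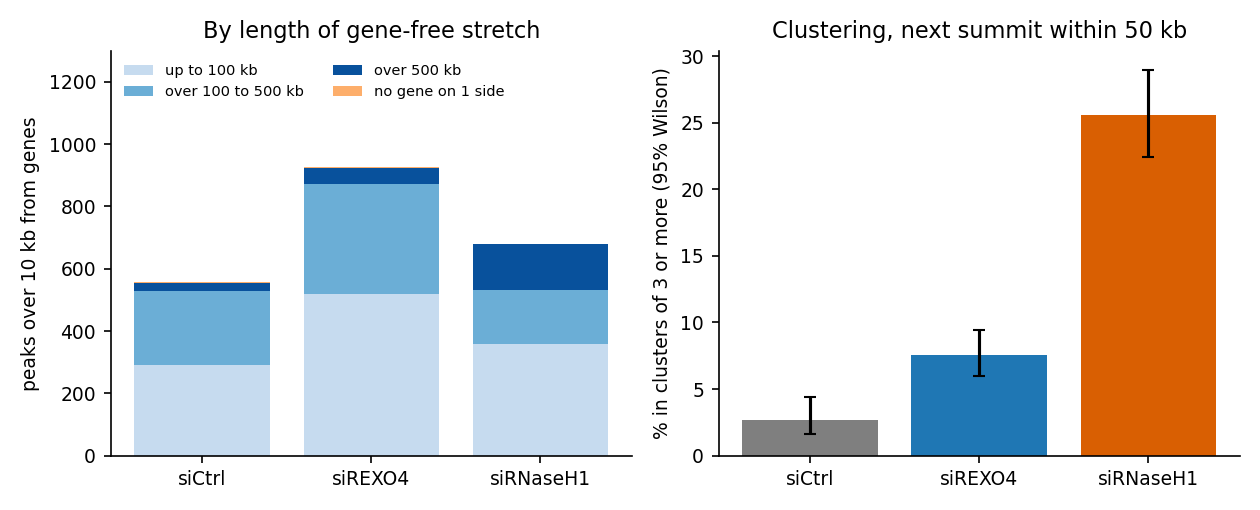
Left, distal intergenic peaks of each list stacked by the length of the gene-free stretch that holds them. Right, percent of the distal peaks in clusters of 3 or more with 95% Wilson intervals. Stretches over 500 kb hold 147 siRNaseH1 peaks against 27 and 52, and 25.6% of siRNaseH1 peaks are in clusters against 2.69% and 7.54%.

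The cluster with the most peaks was in the siRNaseH1 list on chromosome 1, from 143187729 to 143264166. It held 33 peaks over 76.4 kb, at one edge of a gene-free stretch of 21728 kb, with LOC101929814 as the next gene. Their folds ran from 1.60 to 4.81, and their median background was 44.8 times the lowest of the list. In the same interval the siCtrl list held 2 distal peaks and the siREXO4 list 1. The next cluster, on chromosome 9 from 60573296 to 60682951, held 11 siRNaseH1 peaks beside the pseudogene CNTNAP3P4, no siCtrl peak and 1 siREXO4 peak. Its median background was 8.20 times the lowest. Another, on chromosome 16 from 46380716 to 46400352 beside the pseudogene ANKRD26P1, held 8 siRNaseH1 peaks and 1 peak in each other list. There the folds ran from 1.72 to 9.33, on a median background of 57.2 times the lowest. The gene-free stretches of these 3 clusters measured 21728, 17693 and 10367 kb.

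The clusters of the other lists held at most 6 peaks. In siREXO4 the largest held 6 peaks on chromosome 22, from 11026217 to 11049396 between the pseudogenes FRG1FP and ACTR3BP7. Its median background was 4.44 times the lowest, with 2 siCtrl peaks and no siRNaseH1 peak in the interval. The next siREXO4 cluster held 5 peaks between SHOC2, which encodes a scaffold protein of RAS signalling, and ADRA2A, an adrenergic receptor gene. It ran from 111033757 to 111048496 on chromosome 10, with 2 siCtrl and 2 siRNaseH1 peaks in the interval. A further siREXO4 cluster of 5 lay past the end of ARHGAP12. The 5 siCtrl clusters held 3 peaks each. They included one beside NDUFA10, a gene of mitochondrial complex I, with folds from 5.27 to 8.24. Others lay between LINC00398 and LINC00545, with folds from 5.15 to 7.50, and between MIR4686 and ASCL2, with folds from 3.73 to 5.04.

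Distal peaks were narrower than the other peaks of each list. For siCtrl the median width was 308 bp (95% interval of the median from order statistics 300 to 318 bp), against 340 bp (336 to 345) for the other peaks. In siREXO4 it was 322 bp (312 to 331) against 389 bp (384 to 394), and in siRNaseH1 346 bp (338 to 360) against 396 bp (392 to 399). The lower quartile of siCtrl distal peaks, 266 bp, was also the smallest width of that list's distal peaks. Peaks of at least 1000 bp formed 1.25% of siCtrl, 3.23% of siREXO4 and 3.23% of siRNaseH1 distal peaks. Among the other peaks they formed 3.29%, 9.92% and 7.76%.

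The fold enrichment of distal peaks was close to that of the rest in siCtrl and lower in both knockdowns. The medians were 4.88 and 4.83 in siCtrl (intervals 4.83 to 5.05 for distal peaks and 4.83 to 4.83 for the others). In siREXO4 they were 4.67 (4.57 to 4.75) and 4.98 (4.95 to 4.98), and in siRNaseH1 4.67 (4.67 to 4.71) and 5.14 (5.09 to 5.14). A fold of at least 5 was reached by 46.6% of siCtrl distal peaks, where 41.2% of the whole list reached it. For siREXO4 the values were 35.5% and 46.6%, and for siRNaseH1 41.1% and 54.5%. Folds under 3 were found in 8.37% of siRNaseH1 distal peaks (6.52 to 10.7%) and in 2.14% of the other peaks of that list. In siCtrl they were found in 1.08% of distal and 0.931% of other peaks, and in siREXO4 in 1.29% and 1.45%. Distal and other peaks are set side by side within a list, since a fold is not comparable between lists.

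**Figure D3:**
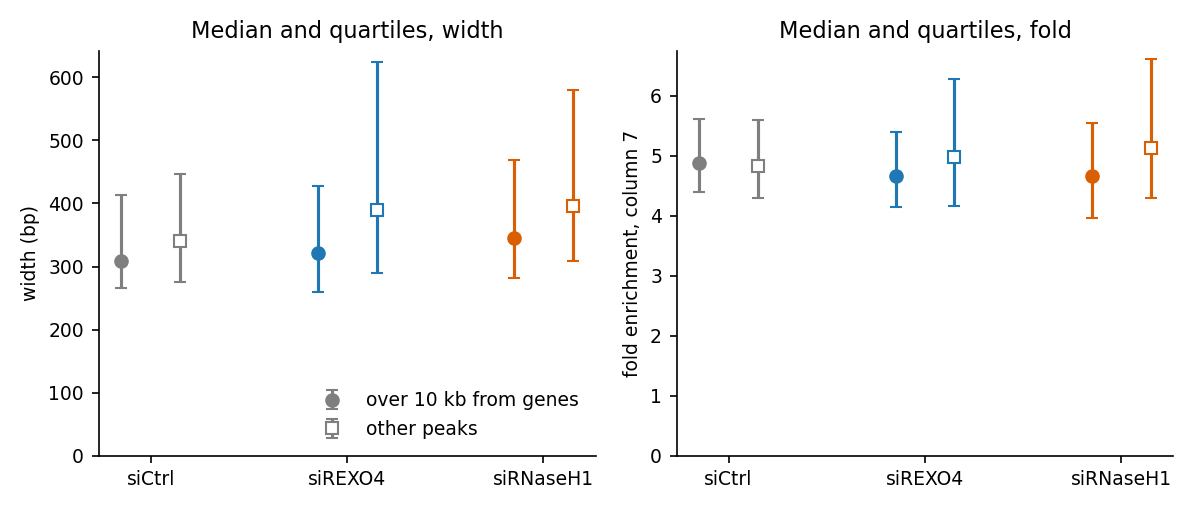
Median with lower and upper quartile of peak width in bp (left) and of fold enrichment (right) for distal intergenic peaks (filled circles) and all other peaks (open squares) of each list. Distal peaks are narrower in the 3 lists, and their median fold is below that of the other peaks in siREXO4 (4.67 against 4.98) and siRNaseH1 (4.67 against 5.14).

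Distal peaks of siREXO4 were found in the siRNaseH1 list less than the other siREXO4 peaks were. A peak was counted as shared when any peak of the other list, distal or not, overlapped it by at least 1 bp. Of siREXO4 distal peaks 199 had a siRNaseH1 peak, which is 21.4% (18.9 to 24.2%). Over all siREXO4 peaks it was 54.1%, and over its other peaks 56.7% (55.8 to 57.6%). In the other direction 199 siRNaseH1 distal peaks, 29.2% (25.9 to 32.7%), had a siREXO4 peak, against 32.7% of the whole list and 32.8% (32.1 to 33.4%) of its other peaks. These 2 intervals overlap. Without the stretches over 500 kb this share was 35.2%, and within them it was 7.48%. With lists of equal length 18.9% of siREXO4 distal peaks met a siRNaseH1 peak, against 55.5% of all peaks of the shortened list, and 34.3% of siRNaseH1 distal peaks met a siREXO4 peak, against 55.0%.

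With the full lists, distal peaks of both knockdowns met siCtrl peaks more often than the whole list did. Of siREXO4 distal peaks 170, or 18.3% (16.0 to 20.9%), had a siCtrl peak, against 14.6% of the whole list. Of siRNaseH1 distal peaks 120, or 17.6% (14.9 to 20.7%), did, against 9.83% of the list. The share with no siCtrl peak was thus 81.7% for siREXO4 distal peaks, where the whole list gave 85.4%, and 82.4% for siRNaseH1 distal peaks, where it gave 90.2%. Seen from the control, 167 of 558 siCtrl distal peaks had a siREXO4 peak (29.9%, 26.3 to 33.9%), against 41.6% of the siCtrl list. A siRNaseH1 peak was found at 119 of them (21.3%, 18.1 to 24.9%), against 46.2% of the list. The siRNaseH1 list met fewer siCtrl distal peaks than the siREXO4 list did. It is the longest list, but it also held fewer distal peaks than the siREXO4 list, 681 against 928. With lists of equal length a siREXO4 peak was met by 12.7% of siCtrl distal peaks, against 26.0% of all siCtrl peaks, and a siRNaseH1 peak by 4.48%, against 25.1%. A siCtrl peak was then met by 36.8% of siREXO4 distal peaks (30.1 to 43.9%), against 25.1% of the shortened list. For siRNaseH1 it was met by 23.8% of distal peaks (16.7 to 32.8%), against 24.4%, so the higher share of siRNaseH1 distal peaks was not seen at equal length.

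**Figure D4:**
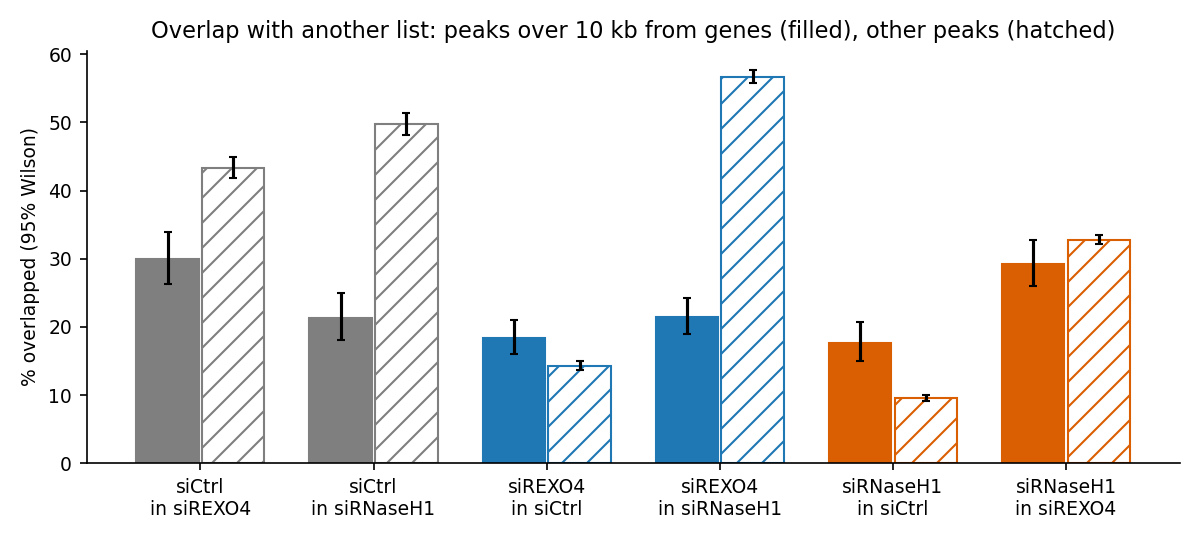
Percent of the peaks of one list overlapped by at least 1 bp by a peak of another list, for distal intergenic peaks (filled) and other peaks (hatched), with 95% Wilson intervals. For siREXO4 peaks found in siRNaseH1 the distal share is 21.4% and the share of the other peaks 56.7%.

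Most distal peaks were found in 1 list alone. In siCtrl 360 (64.5%) met no peak of a knockdown list, in siREXO4 647 (69.7%) met none of the other lists, and in siRNaseH1 454 (66.7%). Among the other peaks these shares were 43.2%, 41.0% and 64.7%. In siRNaseH1 the interval of the distal share, 63.0 to 70.1%, covers the share of the other peaks. Distal peaks of 1 list alone were the narrowest, with median widths of 282.5, 297 and 317 bp, while those that met both other lists had medians of 502, 565 and 507.5 bp. This was not particular to distal peaks. Among the other peaks the medians were 303, 313 and 351 bp for 1 list alone and 427, 775 and 876 bp for all 3. Sharing was more frequent among distal peaks of high fold. With siREXO4 distal peaks split by fold into 4 groups of 232, a siRNaseH1 peak was met by 15.1%, 12.9%, 17.2% and 40.5%, from the lowest to the highest group. For siRNaseH1 distal peaks the share with a siREXO4 peak was 21.6%, 21.2%, 25.3% and 48.8%.

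At 81 loci, which hold 86 siCtrl peaks, distal peaks of all 3 lists overlapped. The summits of the best ranked peaks at a locus lay within a median of 194 bp of each other, and at 41 loci (50.6%) within 200 bp. The distal peaks of highest fold were among them: the first 5 of siCtrl and the first 6 of siREXO4 overlapped peaks of both other lists. The highest was on chromosome 13, from 109423970 to 109424498, 19.9 kb from LOC105370359, a long noncoding RNA gene. It ranked first among distal peaks in each list. Its fold was 155 for siCtrl, 151 for siREXO4 and 352 for siRNaseH1, with widths of 512, 513 and 515 bp and summits within 8 bp.

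Another 3 of the leading loci had no annotated gene between them and the end of the chromosome. They were the only distal peaks of this kind, and each of them was in all 3 lists. On chromosome 12, from 133264870 to 133265388 beyond the pseudogene RNU6-717P, the fold was 51.5 for siCtrl, 46.7 for siREXO4 and 87.1 for siRNaseH1, with summits within 4 bp. On chromosome 5, from 10010 to 11782, before the first gene LOC124900928, it was 22.6, 27.8 and 45.5. On chromosome 18, from 80262835 to 80263265 beyond PARD6G, a cell polarity gene, it was 21.2, 41.9 and 18.0.

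Other leading loci are given with their folds side by side, each of them the value within its own list. On chromosome 2, from 121074608 to 121075969 beside LOC105373587, the fold was 10.1 for siCtrl, 67.6 for siREXO4 and 94.5 for siRNaseH1. Its widths in the same order were 531, 1123 and 1362 bp. On chromosome 10, from 72296856 to 72298578, the fold was 8.92, 47.2 and 18.8, at widths of 517, 1723 and 1510 bp. This locus lies 21.8 kb past the end of DDIT4, a stress-induced gene whose product restrains mTORC1 signalling. Its summit rested on 29 siCtrl, 157 siREXO4 and 132 siRNaseH1 fragments, on a background 1.85, 1.66 and 4.48 times the lowest of the list. On chromosome 8, from 101026747 to 101027914 between LOC401471 and SLEAR, the siRNaseH1 fold was 38.4, with overlapping peaks of 4.04 in siCtrl and 14.5 in siREXO4. On chromosome 2, from 65576386 to 65577312 beside LINC03050, the siRNaseH1 fold was 25.5 and the siREXO4 fold 21.6, with no siCtrl peak. The sixth siCtrl peak by fold, 9.45, was on chromosome 8 from 75104386 to 75104933, with a siRNaseH1 peak of 5.09 and no siREXO4 peak. These folds carry no replicate error and are not compared between lists.

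The 4 widest distal peaks were in the knockdown lists, while the widest of siCtrl measured 1762 bp. The widest, 3312 bp, was a siREXO4 peak past the end of NDUFA10 on chromosome 2, from 239865729 to 239869040, with a fold of 7.19. Peaks of the other lists overlapped it, with folds of 8.24 in siCtrl and 6.30 in siRNaseH1. A siREXO4 peak of 2452 bp on chromosome 11, from 126163236 to 126165687, had a fold of 17.3 and was in no other list. The siRNaseH1 peak of 2361 bp near KRT80, a keratin gene, on chromosome 12 from 52146514 to 52148874, had a fold of 13.9, and the siREXO4 peak there had 9.51. The fourth, a siREXO4 peak of 2354 bp on chromosome 16 from 48930546 to 48932899, lay 135 kb from the nearest gene, with a fold of 6.03 and no peak in another list.

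The side of the nearest gene on which distal peaks lay was examined for genes whose strand is known from the RefSeq promoter table, which has no entries for chromosome 8. Of siRNaseH1 distal peaks 248 of 349 lay past the 3′ end of the nearest gene, which is 71.1% (66.1 to 75.6%). In siCtrl the share was 58.4% (52.3 to 64.2%) and in siREXO4 57.4% (52.8 to 61.8%). Of the bases more than 10 kb from genes, sampled every 1000 bp where the nearest gene has a known strand, 56.9% lay on that side. With protein-coding nearest genes the shares were 51.2% in siCtrl, 58.6% in siREXO4 and 70.8% in siRNaseH1, against 52.1% of bases. At 10 to 20 kb from the gene they were 57.1% (47.9 to 65.9%), 64.3% (57.7 to 70.4%) and 72.4% (65.3 to 78.5%), against 52.6% of bases. Over 20 to 50 kb from the gene they were 55.8% (45.8 to 65.4%), 47.6% (40.1 to 55.2%) and 60.8% (51.1 to 69.7%), intervals that all cover the 54.1% of bases. Beyond 50 kb they were 65.5%, 59.0% and 82.2% (71.9 to 89.3%), against 62.7% of bases. At all distances, but without the stretches over 500 kb, the shares were 57.6%, 56.6% and 66.6% (61.0 to 71.7%), against 54.0% of bases. For siRNaseH1 this left 195 of 293 peaks, in place of 248 of 349. The 33 siRNaseH1 peaks of the chromosome 1 cluster, in such a stretch, lie past the 3′ end of LOC101929814. The class beyond 50 kb was not split by stretch length, and its interval treats clustered peaks as independent. With 1 peak counted per nearest gene the siRNaseH1 share was 63.5% (57.3 to 69.3%), since several peaks often followed the same gene. The lists were closer among distal peaks overlapped by a peak of another list. There the shares were 67.9% (58.5 to 76.0%) in siCtrl, 64.2% (56.4 to 71.2%) in siREXO4 and 69.3% (61.2 to 76.4%) in siRNaseH1. Among distal peaks overlapped by none they were 51.9% (44.1 to 59.6%), 53.8% (48.2 to 59.3%) and 72.2% (65.8 to 77.8%).

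**Figure D5:**
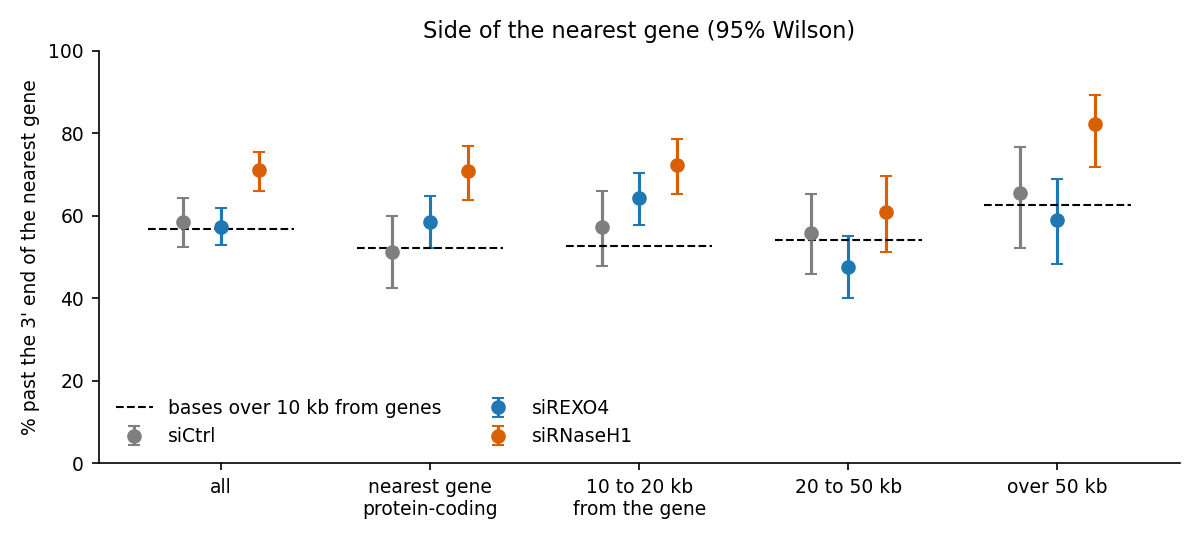
Percent of distal intergenic peaks that lie past the 3′ end of the nearest gene, by list, with 95% Wilson intervals, for all peaks, for protein-coding nearest genes and by distance to the gene. Dashed lines show the same percent of bases more than 10 kb from genes whose nearest gene has a known strand. Over all distances it is 56.9%, against 71.1% of siRNaseH1 peaks.

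Genes with distal peaks past their 3′ end often had nearer peaks as well. There were 58 such protein-coding genes in siCtrl, 117 in siREXO4 and 93 in siRNaseH1, and 2, 4 and 10 of them had 3 or more distal peaks. A peak within 10 kb past the end, in the same list, was found at 10.3% of them in siCtrl, 18.8% in siREXO4 and 46.2% in siRNaseH1. Over all 2915 protein-coding genes that border a gene-free stretch of over 20 kb at this end it was found at 2.81%, 5.66% and 10.6%. A peak inside the gene or within 2 kb of it was found at 27.6%, 44.4% and 65.6%, against 11.9%, 29.6% and 33.7% of the bordering genes. Expression was not measured here, and these shares are not adjusted for it or for gene length.

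Among protein-coding genes of known strand, those followed by the most siRNaseH1 distal peaks were CYB5B with 5, and WDR4 and SMARCA4 with 4 each. CYB5B is a gene of an outer mitochondrial membrane cytochrome. WDR4 encodes a subunit of a tRNA methyltransferase and SMARCA4 the ATPase of SWI/SNF chromatin remodellers. At CYB5B the peaks lay from 14.4 to 23.0 kb past the gene, with folds from 3.62 to 6.24, while siREXO4 had 3 there and siCtrl 1. At WDR4 the siRNaseH1 folds ran from 3.10 to 11.2, with 2 siREXO4 peaks and no siCtrl peak. At SMARCA4 they ran from 2.77 to 8.10, with 1 peak past the gene in each other list. AMD1, which encodes a polyamine synthesis enzyme, NAA15, a subunit of an N-terminal acetyltransferase, and SMAD4, a mediator of TGF-beta signalling, were followed by 3 siRNaseH1 distal peaks each. MACO1, WASF1 and HNRNPLL also had 3. At NAA15 the siRNaseH1 folds were from 6.36 to 10.6, over 12.6 to 17.1 kb past the gene, where siREXO4 had 2 peaks and siCtrl none. At AMD1 they were from 4.51 to 8.48, where siCtrl had 1 peak and siREXO4 none.

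Among protein-coding genes of known strand in siREXO4, ARHGAP12 had the most distal peaks past its end, with 5. SHOC2, CYB5B and CSNK1A1, a casein kinase gene, came next with 3 each. ARHGAP12 was followed by distal peaks in the 3 lists, with 3 siCtrl, 5 siREXO4 and 3 siRNaseH1 peaks. The nearest lay 10.4, 10.3 and 10.3 kb past the gene, with folds of 6.49, 6.45 and 7.03. The siREXO4 and siRNaseH1 lists also had peaks 46.2 kb past it, of 4.19 and 5.05, and siCtrl had none there.

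The promoters of ARHGAP12 and CYB5B are shown because peaks overlapped them in the lists that also had several distal peaks past the gene. The sequences are the 250 bases before the annotated start, 5′ to 3′ on the strand of the gene, from RefSeq on GRCh38.p14. Capitals mark runs of 4 or more G or of 4 or more C.
ARHGAP12: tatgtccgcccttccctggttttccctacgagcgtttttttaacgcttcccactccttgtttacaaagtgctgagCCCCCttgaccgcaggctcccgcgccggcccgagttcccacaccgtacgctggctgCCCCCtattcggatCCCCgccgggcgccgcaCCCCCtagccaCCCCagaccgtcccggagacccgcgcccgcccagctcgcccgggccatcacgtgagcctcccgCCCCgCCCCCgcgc
CYB5B: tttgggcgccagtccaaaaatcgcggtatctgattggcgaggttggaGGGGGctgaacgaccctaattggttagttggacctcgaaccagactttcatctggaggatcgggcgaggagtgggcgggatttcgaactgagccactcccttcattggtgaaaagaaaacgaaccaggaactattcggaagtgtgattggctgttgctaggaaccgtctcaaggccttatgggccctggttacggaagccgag
The ARHGAP12 stretch lies on chromosome 10 from 31928877 to 31929126 on the minus strand. It is 69.6% G and C, with 7 runs of C and 0 runs of G. The CYB5B stretch lies on chromosome 16 from 69424369 to 69424618 on the plus strand and is 53.6% G and C, with 1 run of G. Over the same 250 bases before the start, the median of the 35116 promoters of the table was 58% G and C, and 87.1% of them held such a run on one strand or the other, so a run is no mark of these genes. Peaks over an annotated start of ARHGAP12 had folds of 6.59 in siCtrl, 15.0 in siREXO4 and 20.0 in siRNaseH1. Those at CYB5B had 12.2 in siREXO4 and 8.00 in siRNaseH1, with no siCtrl peak. These promoter peaks were not distal peaks, and their sequence is not that of the distal peaks.

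The kinds of gene nearest to distal peaks were alike in the lists. Long noncoding RNA genes were nearest to 39.8% of siCtrl, 39.7% of siREXO4 and 36.0% of siRNaseH1 distal peaks. Protein-coding genes were nearest to 30.1%, 32.2% and 34.2%. Of all genes on these chromosomes 31.4% were long noncoding and 33.7% protein-coding. The nearest protein-coding gene held a peak of the same list more often than the average one. This was so for 26.2% of such siCtrl distal peaks (20.1 to 33.3%), 44.1% in siREXO4 (38.6 to 49.8%) and 53.6% in siRNaseH1 (47.2 to 59.9%). Over all protein-coding genes it was 12.3%, 34.0% and 39.5%. For long noncoding RNA genes the shares were 4.05%, 9.24% and 7.35%, against 3.32%, 10.7% and 11.2%.

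Genes of 3 lists were looked up as the nearest protein-coding gene of a distal peak. Immediate early genes, which respond within minutes to growth signals and stress, were nearest to 3 siCtrl, 10 siREXO4 and 6 siRNaseH1 distal peaks, at 2, 5 and 2 genes. These are 0.538%, 1.08% and 0.881% of the distal peaks, while the list's 25 genes are 0.131% of protein-coding genes. The length of gene-free sequence around these genes was not taken into account. MYC, a growth regulator, was nearest to peaks of each list, with highest folds of 6.15 for siCtrl, 8.72 for siREXO4 and 6.72 for siRNaseH1. The siCtrl and siREXO4 peaks of these overlapped, at 619 kb from the gene, and the siRNaseH1 peak lay elsewhere, at 374 kb. In siCtrl the other gene was IER5 (fold 3.99). In siREXO4 KLF10 (5.30), FOS (4.06) and KLF6 (3.99) followed, and in siRNaseH1 NR4A2 (6.36). The peaks given for these other genes were each in 1 list alone. Osteosarcoma and mesenchymal genes, 0.120% of protein-coding genes, were nearest to 1, 4 and 1 distal peaks, which is 0.179%, 0.431% and 0.147%. The genes found were TGFB2 in siCtrl (5.71), and TWIST2 (6.01), VIM (4.56) and COL5A1 (3.31) in siREXO4. SP7, an osteoblast transcription factor gene, was found in siRNaseH1 (3.96). No p53 target gene of 20 was the nearest protein-coding gene of a distal peak in any list, which allows up to 0.684%, 0.412% and 0.561% of the distal peaks. These 20 genes are 0.105% of protein-coding genes, below each of these limits, so their absence does not set them apart.

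The share of distal peaks was uneven over chromosomes. Chromosome 19 had a low share in each list, at 4.07% of its peaks in siCtrl, 1.44% in siREXO4 and 1.76% in siRNaseH1. Chromosome 18 had 25.8%, 13.8% and 4.15%. On chromosome 17 the share was 7.26% for siCtrl, 4.17% for siREXO4 and 0.848% for siRNaseH1. Chromosome 1 held 12.9% of siRNaseH1 distal peaks, 88 of them, against 5.56% in siCtrl and 6.79% in siREXO4, and 33 of the 88 were in the cluster beside LOC101929814.

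The limit of 10 kb cuts through some shared loci. A locus on chromosome 1 near LINC01346 was a distal peak in siREXO4, 10002 bp from the gene with a fold of 6.58. It was not one in siCtrl, where the summit lay 9914 bp away with a fold of 6.51. The reverse held beside LOC105375794, at 10043 bp in siCtrl (4.53) and 9964 bp in siREXO4 (4.71). The other peaks nearest the limit in siCtrl lay at 10029 bp (3.93) and 9956 bp (4.84). In siREXO4 they lay at 10023 bp (3.86) and 9937 bp (6.15). In siRNaseH1 the nearest beyond it lay at 10131 bp (4.16) and 10140 bp (4.30), and those within it at 9976 bp (4.93) and 9988 bp (5.09).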

How the data were processed

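Of 13 U2OS samples, the peak lists of the 3 S9.6 IP groups were used; the authors called each from pooled IP libraries, as the names of the deposited tables state. The deposited lists follow the narrowPeak layout. At each summit the authors' list gives a deposited fold enrichment, which is a ratio to local background, and a deposited −log10 p. A deposited score was not used. Tools listed without roles in the submitters' processing notes were MACS2 2.1.0.20150731, HISAT2 2.2.1, Trim Galore 0.6.10, SAMtools 1.17, deepTools 3.5.1 and Cufflinks, with the build hg38. Which control each call used, and how duplicates and multiply mapped reads were treated, is not stated in these sources. Input, IgG and per-replicate signals were not analysed here.

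A summit is column 2 plus column 10, on chromosomes 1 to 22. Distance was taken to the nearest gene boundary in the RefSeq table. Whole fragments were recovered where fold as (fragments + 1) / (background + 1) and the Poisson tail both held within 0.001 in −log10 p, for values below 300. Strand came from the RefSeq promoter table, and the side of the nearest gene was examined after the data were seen. Named regions are the 6 of highest fold per list, the 4 widest, the 3 largest clusters per list, the 6 best ranked loci of all 3 lists, those nearest the limit, and at most 4 genes of each looked-up list by fold. IER5 in siREXO4 is named beyond these 4. Protein-coding genes with the most peaks past their end, and the printed promoters, were chosen after their values were seen. The members and lists were chosen with earlier results of these data known. Alternatives changed the distance, the threshold, list length, linking distance, overlap and gene set. The code was tested on simulated data. Scripts ran in Python 3.11.15 with pandas 2.3.3, NumPy 2.4.6, Matplotlib 3.10.9 and SciPy 1.17.1.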

Additional observations from a re-analysis of the deposited data

Results flagged for a closer look

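Chromosome X was outside the comparisons, and it held more peaks over 10 kb from genes after either knockdown than in the control. There were 13 in siREXO4 among 212 peaks and 18 in siRNaseH1 among 374, against 4 in siCtrl among 35. As a share of the peaks on this chromosome they were 6.13% (3.62 to 10.2%) and 4.81% (3.07 to 7.48%), against 11.4% (4.54 to 26.0%). The difference has no replicate check, and the intervals overlap.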

How the results depend on the processing

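Of 117 values under an alternative, for 24 results, 61 stayed within the counting interval of the reported value, or within 1.5 times of a number, and 56 did not. The 61 include the siCtrl number, share and clustering at equal list length, which cannot change because the siCtrl list sets that length. In the order siCtrl, siREXO4, siRNaseH1, a distance over 5 kb gave 18.3%, 11.2% and 6.32% of the list, with 1394 siREXO4 and 1300 siRNaseH1 peaks. Over 20 kb gave 331, 519 and 394 peaks (7.48%, 4.16% and 1.91%). Distance to protein-coding genes only gave 1180, 2128 and 1801 (26.7%, 17.1% and 8.75%). A fold of at least 5 gave 260, 329 and 280 (14.3%, 5.66% and 2.50%). Lists of equal length gave 185 siREXO4 (4.18%) and 105 siRNaseH1 peaks (2.37%). This was the only one of these settings where siCtrl had the most distal peaks. Without stretches over 500 kb the siRNaseH1 share was 2.61%. That alternative, and those on the side of the gene, were chosen after seeing the data.

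The share in clusters was 1.61% in siCtrl with a link of 20 kb and 10.5% in siREXO4 with 100 kb. At equal list length it was 1.62% in siREXO4 and 46.7% in siRNaseH1. In siRNaseH1 it was 21.8% without the largest cluster and 17.0% without stretches over 500 kb. At a fold of at least 5 the median width was 372 bp in siREXO4 and 388 bp in siRNaseH1. The siRNaseH1 median fold was 4.63 over 20 kb from genes and 4.80 without stretches over 500 kb.

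With an overlap of 50% of the peak, sharing was 17.6% for siCtrl in siRNaseH1, 14.2% for siREXO4 in siCtrl and 17.9% for siREXO4 in siRNaseH1. It was 13.5% for siRNaseH1 in siCtrl and 23.6% for siRNaseH1 in siREXO4. At a fold of at least 5 in both lists it was 20.8% for siCtrl in siREXO4 and 23.2% for siRNaseH1 in siREXO4. At equal list length it was 12.7% for siCtrl in siREXO4, 4.48% for siCtrl in siRNaseH1, 36.8% for siREXO4 in siCtrl and 18.9% for siREXO4 in siRNaseH1. It was then 23.8% for siRNaseH1 in siCtrl and 34.3% for siRNaseH1 in siREXO4. For siRNaseH1 in siREXO4 it was 25.6% over 20 kb from genes and 35.2% without stretches over 500 kb, where siRNaseH1 in siCtrl was 21.2%. The share past the 3′ end was 51.2% for siCtrl with protein-coding nearest genes and 63.5% for siRNaseH1 with 1 peak per gene. Stricter thresholds and equal length keep fewer peaks by construction; the cause of the other shifts was not tested.

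No paired analysis was possible because each list is 1 call on merged libraries. Leaving out a replicate was not run for the same reason. Most distal peaks rest on few fragments, so absence from a list means that no peak was called there.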
